A study of Homo sapiens with 8 samples.

Results

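Proteins that meet a nascent chain at the ribosome were followed here as nascent chains themselves. The genes are NACA and BTF3, which encode the subunits of the nascent polypeptide-associated complex (NAC); DNAJC2 and HSPA14, which encode the J-domain protein and the Hsp70 relative of the ribosome-associated complex; SRP54, SRP68 and SRP72 of the signal recognition particle (SRP); the methionine aminopeptidases METAP1 and METAP2; and NAA15, the auxiliary subunit of N-acetyltransferase A that anchors the enzyme to the ribosome. They were chosen by these known roles, at a time when earlier results of these data were known. All 10 were found by gene identifier among the 60664 genes of both count tables. The libraries come from selective ribosome profiling, in which the stretches of mRNA that a translating ribosome shields from RNase I (ribosome-protected fragments, RPFs) are sequenced from all ribosomes (input) and from ribosomes recovered through a tagged chaperone (pulldown). The cells were U-2 OS, a human osteosarcoma line. In the TRiC line, which has the genotype CCT4-Halo, CRISPR knock-in had placed the HaloTag in a loop of CCT4, a subunit of the chaperonin TRiC. In the PFD line, with the genotype PFDN4-Halo, the tag sat at the C terminus of endogenous PFD4, a subunit of the TRiC cofactor prefoldin. The tagged lines were raised from sorted single clones. Cells of all 4 groups received cycloheximide at 100 µg per ml for 1 min and then the crosslinker DSP at 2 mM for 30 min. Input and pulldown of either line thus make 4 groups, with 2 replicates each.

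NAC sits at the exit of the ribosomal tunnel and is among the first factors to contact an emerging chain. It also limits the access of SRP, which reads out hydrophobic signal sequences and hands the ribosome to the SRP receptor at the endoplasmic reticulum. The ribosome-associated complex recruits Hsp70 to nascent chains. Methionine aminopeptidases remove the initiator methionine where the following residue is small, and N-acetyltransferase A then acetylates many of the exposed residues. TRiC and prefoldin take over other chains, among them actin and tubulins. The comparison asked here is whether ribosomes that were making these factors were recovered with TRiC or prefoldin in a larger or smaller share than their share of total ribosomes.

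The genes lie on 7 chromosomes. In hg38 with the GENCODE release 44 annotation, NACA is at chr12:56712305-56731628 on the minus strand and BTF3 at chr5:73498408-73505667 on the plus strand. DNAJC2 lies at chr7:103312289-103344830 (minus) and HSPA14 at chr10:14838306-14871741 (plus). SRP54 lies at chr14:34981957-35029686 (plus), SRP68 at chr17:76038775-76072517 (minus) and SRP72 at chr4:56467617-56503681 (plus). METAP1 is at chr4:98995659-99062809, METAP2 at chr12:95473520-95515839 and NAA15 at chr4:139301446-139420033, all on the plus strand. Their coding sequences run from 206 codons in BTF3 to 866 codons in NAA15. The canonical transcript of NACA in this release is a form of 2078 codons with a long extra exon known from muscle, so the form of 215 codons was used for NACA wherever a length enters.

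Sequence matters for these genes because the authors kept only reads that align to 1 place in the genome. The first 30 coding bases of 4 members are shown, with the start codon in capitals (for BTF3 those of the form of 206 codons). The windows lie in coding exons at chr12:56724492-56724521 (minus strand, NACA), chr5:73498668-73498697 (BTF3), chr14:34996710-34996739 (SRP54) and chr4:139301778-139301807 (NAA15).
NACA: ATGcccggcgaagccacagaaaccgtccct
BTF3: ATGcgacggacaggcgcacccgctcaggct
SRP54: ATGgttctagcagaccttggaagaaaaata
NAA15: ATGccggccgtgagcctcccgcccaaggag
None of these 4 start windows had an exact copy elsewhere in hg38, and the same held for the start windows of the other 6 members. Further along the coding sequence the members differed. The most copied window is shown for NACA and SRP72, as examples of coding sequence that occurs more than once in the genome. They lie at chr12:56713598-56713627 in NACA (minus strand) and chr4:56501820-56501849 in SRP72 (plus strand).
NACA: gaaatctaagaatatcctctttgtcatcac
SRP72: cagcaacagaaaaagaagaaaggtggaaaa
The NACA window had 4 exact copies elsewhere in hg38 and the SRP72 window 3. Of all 30-base coding windows, 53% had such a copy in BTF3, 44.5% in NACA and 22% in SRP72. The share was 4.54% in SRP68, 2.21% in METAP2, 0.927% in DNAJC2 and 0.177% in METAP1. It was 0% in HSPA14, SRP54 and NAA15. GENCODE lists 16 pseudogenes named for BTF3, 6 for NACA, 3 for SRP68, 2 for SRP72, 1 for METAP2 and none for the other 5 members. A read that matches such a copy equally well has 2 or more alignments and was not kept, so the levels of NACA, BTF3 and SRP72 below can be understated. The loss applies to the same windows in every library. Neighbouring genes overlap some members as well. The share of exon bases under a gene of the opposite strand was 21.1% in DNAJC2, 11.6% in METAP1 and 6.36% in NAA15, and 12.7% of those of HSPA14 lie under a gene of the same strand. Which strand column the authors kept is not given, and how these overlaps affect the counts was not tested.

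The libraries held between 9523128 and 32637658 counts. The 10 members took 0.0896% to 0.102% of the counts in the TRiC libraries and 0.152% to 0.168% in the PFD libraries. Counts of single members ranged from 296 (HSPA14 in PFD input replicate 2) to 7681 (BTF3 in PFD pulldown replicate 2). The spread between replicates of the members was smaller than that of all genes, which were not matched to them by counts. The median absolute difference on the log2 scale was 0.11 against 0.17 in TRiC input and 0.25 against 0.54 in PFD pulldown. PFD pulldown replicate 1 stood apart: 963 genes with at least 100 counts in another library had 0 counts in it, against 308 to 521 in the other PFD libraries and 24 to 42 in the TRiC libraries. Of 5 mesenchymal and osteoblast-lineage markers, VIM, COL1A1, SPARC and RUNX2 had at least 613 counts in every library, whereas COL1A2 had 1 to 66. Markers of blood (PTPRC), liver (ALB), glia (GFAP) and epithelium (CDH1) reached at most 35 counts in any library. The epithelial marker EPCAM had 189 to 277 counts in 7 libraries and 1 count in PFD pulldown replicate 1. The replicates are named biological replicates without saying whether they were separate cultures, and p-values measure the spread between these samples.

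In the TRiC line, none of the 10 members passed the test for a difference between pulldown and input in its share of RPFs. The largest difference was that of SRP54, whose log2 fold change was −0.25, and the other 9 lay between −0.17 and 0.13. Levels are given as counts scaled to a common library size (CPM) after TMM scaling within a line, for replicates 1 and 2. Here and below, whether the 2 values of each group overlap is description only. The share of all genes without overlap was not computed. The call rule was an adjusted p under 0.05 in edgeR's quasi-likelihood test over 17934 genes, by which 19.2% of all genes were called (8.64% higher and 10.6% lower in the pulldown). The test was passed by 0 of 10 members, DESeq2 called 0 as well (16.9% of all genes), and 1 of them had an unadjusted p under 0.05. Among all genes 32.5% had an unadjusted p that low.

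SRP54 is the GTPase subunit that binds signal sequences. It had 93.5 and 111 CPM in TRiC input and 81.4 and 90.3 CPM in TRiC pulldown. Both pulldown values lay below both input values. The edgeR log2 fold change was −0.25 (SE 0.10, 95% interval −0.46 to −0.05) with an adjusted p of 0.0757. SRP68 and SRP72 form a dimer on the SRP RNA that is needed for a working particle. SRP68 had 103 and 109 CPM in input and 94.3 and 95.1 CPM in pulldown, again without overlap, with a log2 fold change of −0.17 (SE 0.08, edgeR adjusted p = 0.175). SRP72 overlapped between the groups, with 152 and 170.0 CPM in input against 135 and 154 CPM in pulldown (log2 fold change −0.16, SE 0.09, edgeR adjusted p = 0.228). All 3 SRP proteins were thus estimated below 0, none past the threshold. SRP54 passed it with no filter on low counts (edgeR adjusted p = 0.0438). Leaving out a library gave −0.37 to −0.14 for SRP54 and −0.24 to −0.08 for SRP72. Without TRiC pulldown replicate 2, SRP54 (−0.32, edgeR adjusted p = 0.0114) and SRP72 (−0.24, edgeR adjusted p = 0.0440) both passed, in a fit that called 8.1% of all genes lower. Without TRiC input replicate 2 they were at −0.14 (edgeR adjusted p = 0.630) and −0.08 (0.772), and without TRiC pulldown replicate 1 at −0.19 (0.149) and −0.08 (0.575).

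The NAC subunits were close to their input levels. NACA, the alpha subunit, had 153 and 154 CPM in TRiC input and 147 and 138 CPM in TRiC pulldown. BTF3, the beta subunit, had 131 and 142 CPM in input and 116 and 134 CPM in pulldown. The pulldown values of NACA lay below those of the input, while those of BTF3 overlapped. The log2 fold changes were −0.11 (SE 0.08, edgeR adjusted p = 0.381) for NACA and −0.13 (SE 0.09, edgeR adjusted p = 0.345) for BTF3.

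In the ribosome-associated complex, the 2 estimates had opposite signs. DNAJC2, which binds the ribosome and stimulates its Hsp70 partner, had 38.2 and 37.2 CPM in TRiC input and 36.7 and 35.9 CPM in pulldown. HSPA14 had 16.7 and 21.0 CPM in input and 20.2 and 21.1 CPM in pulldown. The HSPA14 difference was within the spread of its input replicates. The log2 fold changes were −0.05 for DNAJC2 (95% interval −0.28 to 0.17) and 0.13 for HSPA14 (−0.18 to 0.43), with edgeR adjusted p of 0.772 and 0.582.

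Among the N-terminal enzymes, METAP1 and NAA15 were the closest of the 10 members to 0. METAP1 had 91.0 and 96.4 CPM in TRiC input and 91.0 and 96.8 CPM in pulldown. METAP2 had 70.3 and 75.8 CPM in input and 67.7 and 70.9 CPM in pulldown. NAA15 had 91.6 and 101 CPM in input and 87.7 and 105 CPM in pulldown. For all 3 genes the groups overlapped. The log2 fold changes were 0.00 for METAP1 (95% interval −0.18 to 0.19), −0.08 for METAP2 (−0.27 to 0.12) and −0.00 for NAA15 (−0.21 to 0.20). Over the 10 members the median log2 fold change was −0.09, with 8 members below 0, beside −0.00 over all genes tested. The members' median was −0.04 with library totals, −0.03 among genes with at least 100 counts in every library and −0.01 under cyclic loess, where NACA was at −0.01, BTF3 at −0.04 and SRP72 at −0.06. The median absolute log2 fold change was 0.12 in the members and 0.28 over all genes. The median standard error was also smaller in the members (0.09 against 0.17), and the genes were not matched by counts.

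**Figure D1:**
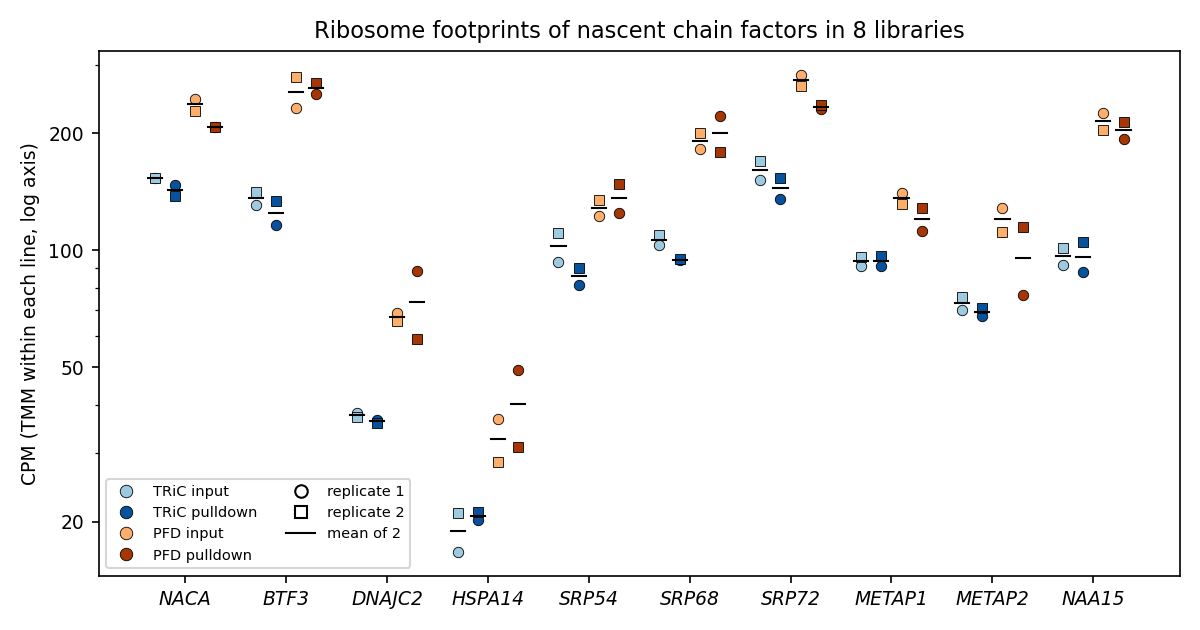
RPF levels of the 10 genes (x axis) in 8 libraries, as CPM after TMM scaling within each line (y axis, log scale). Circles are replicate 1, squares replicate 2 and bars the mean of 2. Within a line, input and pulldown points lie close together, as for METAP1 at 91.0 to 96.8 CPM in the TRiC line, and the widest pulldown pairs are those of HSPA14, DNAJC2 and METAP2 in the PFD line.

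In the PFD line, no member passed the test either, and the estimates were less precise. The test ran over 14111 genes, of which 0.241% were called (0.0496% higher and 0.191% lower). Of the 10 members 0 were called, and 0 had an unadjusted p under 0.05, against 6.93% of all genes. With DESeq2, 0 members were called as well, beside 3.9% of all genes. The median standard error of the members' log2 fold changes was 0.16, against 0.09 in the TRiC line. Members' edgeR adjusted p ranged from 0.783 to 0.995.

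NACA had 246 and 229 CPM in PFD input and 208 in both PFD pulldown libraries. SRP72 had 283 and 265 CPM in input and 231 and 237 CPM in pulldown. For these 2 genes the pulldown values lay below the input values. The log2 fold changes were −0.19 for NACA (95% interval −0.48 to 0.10) and −0.23 for SRP72 (−0.50 to 0.04), with edgeR adjusted p of 0.866 and 0.783. BTF3 had 232 and 279 CPM in input and 253 and 269.5 CPM in pulldown, with a log2 fold change of 0.03 (−0.28 to 0.34). SRP54 had 122 and 135 CPM in input against 125 and 148 CPM in pulldown (0.09), and SRP68 had 182 and 199.9 CPM against 222 and 179 CPM (0.07). Both overlapped between the groups.

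The widest spread within PFD pulldown was seen for HSPA14, DNAJC2 and METAP2. HSPA14 had 36.7 and 28.5 CPM in input and 49.2 and 31.2 CPM in pulldown (log2 fold change 0.29, 95% interval −0.49 to 1.08). DNAJC2 had 69.1 and 65.7 CPM in input and 88.3 and 59.0 CPM in pulldown (0.12, −0.45 to 0.70). METAP2 had 129 and 112 CPM in input and 76.6 and 114 CPM in pulldown (−0.33, −0.85 to 0.19). In each of these genes the pulldown value farther from the inputs was that of replicate 1, the library with the many genes at 0 counts. METAP1 had 140.2 and 132 CPM in input and 112 and 128 CPM in pulldown (−0.18), and both pulldown values lay below both input values. NAA15 had 226 and 205 CPM in input and 194 and 214 CPM in pulldown (−0.08). Without PFD pulldown replicate 1, 0 members and 2.34% of all genes were called, HSPA14 and DNAJC2 turned to −0.07 and −0.20, and METAP2 was at −0.07. Without replicate 2, in contrast, METAP2 was called lower (−0.65, edgeR adjusted p = 0.0195), in a fit that called 8.76% of all genes lower. The median over the members was −0.02 in all 4 libraries, beside −0.00 over all genes tested.

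**Figure D2:**
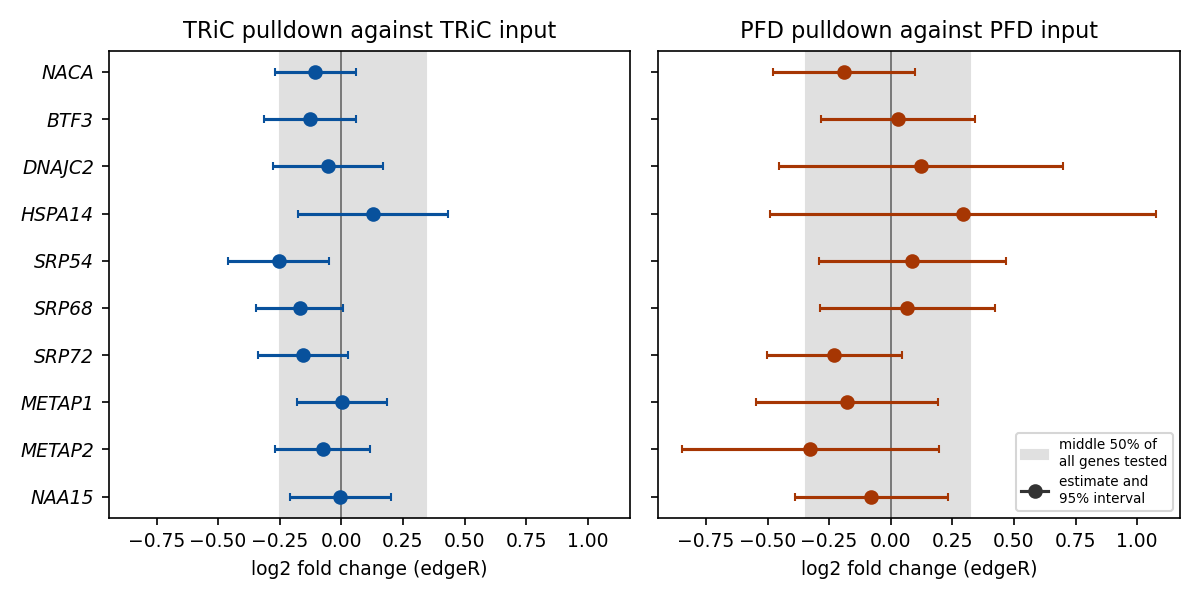
Log2 fold change of pulldown against input (x axis) with its 95% interval for each gene, in the TRiC line (left) and the PFD line (right). Grey marks the middle 50% of all genes tested. In the left panel SRP54 is the only gene whose interval (−0.46 to −0.05) lies below 0, and in the right panel all 10 intervals span 0.

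The difference between the TRiC and PFD enrichments was tested as an interaction over all 8 libraries and 18855 genes, of which 0.0371% were called (0.0212% higher and 0.0159% lower). Of the members, 0 were called and 0 had an unadjusted p under 0.05, and DESeq2 called 0 members too, beside 5.39% of all genes. The differences, TRiC minus PFD on the log2 scale, ran from −0.33 for SRP54 (95% interval −0.81 to 0.14) to 0.26 for METAP2 (−0.40 to 0.91). SRP68 was at −0.22, BTF3 at −0.15, METAP1 at 0.19 and NACA at 0.10. Leaving out a library gave −0.48 to −0.14 for SRP54, −0.31 to −0.10 for SRP68, −0.28 to −0.04 for BTF3, 0.07 to 0.36 for METAP1 and 0.02 to 0.16 for NACA, none of them called. EdgeR adjusted p of the members lay between 0.482 and 0.944. Without PFD pulldown replicate 1, METAP2 was at −0.03 and 0 members were called, beside 5.62% of all genes, and without replicate 2 METAP2 was called higher (0.65, edgeR adjusted p = 0.0328), as were 11.6% of all genes in that fit.

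In total ribosomes the members took a smaller share in the TRiC line than in the PFD line, with 8 of 10 lower at an adjusted p under 0.05. The comparison used the inputs in the fit of 8 libraries, in which 20.5% of 18855 genes were called (10.5% higher and 9.93% lower in TRiC input). All 10 estimates were below 0, with a median of −0.81, beside 0.18 over all genes tested. Without regard to sign, the median difference was 0.81 in the members and 0.78 over all genes. That median of all genes moved to −0.07 under cyclic loess and to −0.00 among genes with at least 100 counts in every library, where the members' medians were −0.73 and −0.70 and 42.3% of genes were called with the count minimum. The lines differ in the tagged gene and the clone and may differ in preparation and sequencer, and these cannot be told apart. Nor can fewer cells translating an mRNA and fewer ribosomes on it in each cell.

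NAA15 had the largest difference. On the scale set over 8 libraries it had 90.7 and 100.5 CPM in TRiC input and 232 and 205 CPM in PFD input. The log2 fold change was −1.19 (SE 0.14, edgeR adjusted p = 0.00064), or 0.438 times the PFD level. BTF3 came next with 129.6 and 140.3 CPM against 238 and 279.7 CPM (−0.94, SE 0.12, edgeR adjusted p = 0.00131). NACA had 152 CPM in both TRiC inputs and 252 and 229 CPM in the PFD inputs (−0.66, SE 0.09, edgeR adjusted p = 0.00183). For these genes each TRiC input lay below each PFD input.

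Among the SRP proteins, the size of the difference was uneven. SRP68 had 102 and 108 CPM in TRiC input against 187 and 200.3 CPM in PFD input (−0.88, edgeR adjusted p = 0.00101). SRP72 had 150.3 and 168 CPM against 290.5 and 265 CPM (−0.80, edgeR adjusted p = 0.00153). SRP54 had 92.6 and 110.0 CPM against 125 and 135 CPM, the smallest difference of the 10 members (−0.36, 95% interval −0.70 to −0.03, edgeR adjusted p = 0.115). SRP54 was 0.905 and 1.02 times SRP68 by counts in the TRiC inputs and 0.67 and 0.675 times in the PFD inputs. In the ribosome-associated complex, DNAJC2 was lower in TRiC input (37.8 and 36.8 against 70.8 and 65.9 CPM, −0.87, edgeR adjusted p = 0.012), and HSPA14 had a like estimate with a wider error (16.6 and 20.8 against 37.6 and 28.6 CPM, −0.83, edgeR adjusted p = 0.0609).

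The aminopeptidases were both lower in TRiC input. METAP1 had 90.0 and 95.4 CPM against 144 and 132 CPM (−0.57, edgeR adjusted p = 0.0147), and METAP2 had 69.6 and 75.0 CPM against 132 and 112 CPM (−0.75, edgeR adjusted p = 0.0345). With a replicate block neither passed (edgeR adjusted p = 0.0926 and 0.165). Under the settings that keep all libraries, METAP1 lay between −0.58 and −0.46 and METAP2 between −0.76 and −0.64. Leaving out TRiC input replicate 1, TRiC input replicate 2, PFD input replicate 1 or PFD input replicate 2 left 5 members called each time, with 3.66% to 4.74% of all genes lower in those fits. A fit of the 4 inputs alone, added after the data were seen, called 10 members lower and 17.7% of all genes.

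Per length of coding sequence the NAC subunits stood above the rest in both lines. Density is given as CPM per kilobase of coding sequence, as mean ± SD over 2 replicates on the scale set over 8 libraries. In TRiC input NACA had 236 ± 0.947 and BTF3 218 ± 12.2. METAP1 (80.1 ± 3.29) and SRP72 (79.1 ± 6.31) followed and overlapped, then SRP54 (67.0 ± 8.14), SRP68 (56.0 ± 2.27) and METAP2 (50.4 ± 2.67). NAA15 (36.8 ± 2.66), DNAJC2 (20.0 ± 0.352) and HSPA14 (12.2 ± 1.97) were lowest, without overlap between neighbours. The highest density was 19.2 times the lowest. These orders are descriptions of 2 libraries a group, without a test.

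In PFD input BTF3 (419 ± 47.7) and NACA (373 ± 24.9) again led, with overlapping replicates. SRP72 (138 ± 8.79), METAP1 (119 ± 7.02) and SRP68 (103 ± 4.99) came next. SRP54 (86.1 ± 4.55), METAP2 (85.0 ± 9.97) and NAA15 (84.1 ± 7.28) overlapped with each other. DNAJC2 (36.7 ± 1.87) and HSPA14 (21.7 ± 4.19) were again lowest, and the highest density was 19.3 times the lowest. With the canonical NACA form of 2078 codons, NACA would stand at 24.4 in TRiC input and 38.6 in PFD input. The order of the other 9 genes does not rest on that choice. BTF3 was taken at its canonical 206 codons, and its annotated forms of 156 and 162 codons would raise its density. The order of NACA and BTF3 in TRiC input thus rests on the forms chosen.

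**Figure D3:**
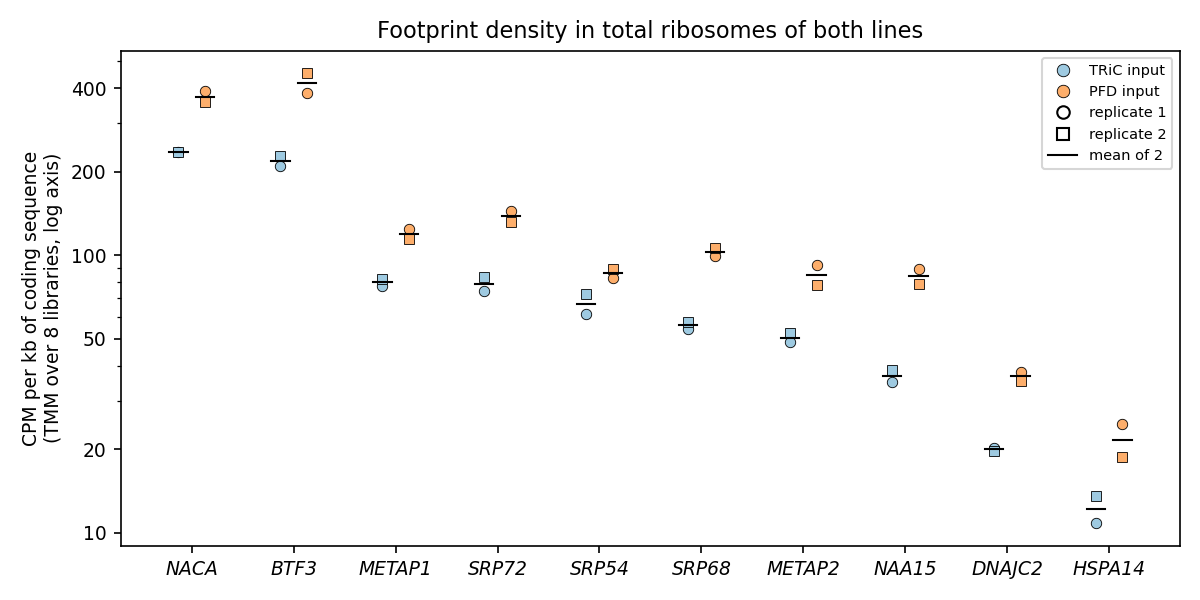
RPF density in total ribosomes, as CPM per kilobase of coding sequence (y axis, log scale), for the 10 genes in the order of their TRiC input mean. Circles are replicate 1, squares replicate 2 and bars the mean of 2. NACA and BTF3 lie at 210 to 453 in both lines and HSPA14 at 10.8 to 24.6, with every gene higher in PFD input.

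Partners in a complex, and the 2 aminopeptidases, differed in how alike their profiles were. Likeness was measured as the root mean square distance between log2 CPM profiles over the 8 libraries after centring each gene, among 9457 genes with a mean of at least 10 CPM, with rank 1 for the nearest gene. DNAJC2 ranked 19 from HSPA14, and HSPA14 ranked 127 from DNAJC2. METAP1 ranked 75 from METAP2, and METAP2 ranked 294 from METAP1. SRP72 ranked 472 from SRP68 and SRP68 ranked 554 from SRP72 (distance 0.190). SRP54 was about as near to SRP72 (distance 0.184, ranks 604 and 484) and farther from SRP68 (distance 0.275, ranks 2058 and 1252). NACA ranked 856 from BTF3, and BTF3 ranked 1722 from NACA. The genes nearest to NACA were EFTUD2 (distance 0.0582), SUB1 (0.0695) and CCT8 (0.0711), all nearer than BTF3 (0.247). These ranks cover 8 libraries of 2 lines, so that most of each profile is the difference between the lines. By counts, NACA was 1.17 and 1.09 times BTF3 in TRiC input and 1.06 and 0.82 times in PFD input. DNAJC2 was 1.7 to 2.3 times HSPA14 over the 8 libraries.

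A further 39 listed factors of nascent chain processing, targeting and quality control were set beside the members. Not all of them act at the cytosolic ribosome, as PDF is mitochondrial. In the TRiC pulldown, 2 of 39 rose and 14 fell, beside 8.64% and 10.6% of all genes tested, and their median log2 fold change was −0.05. No direction of these 16 calls turned under the alternatives run. The call of all 16 was lost with 1 fit of all 8 libraries, and 9 were lower with library totals or cyclic loess scaling, where NAA50, NMT1, BAG6, GET3 and PELO lost theirs. SRP14, HYPK, NAA20, SEC61B and SGTA kept their calls whichever of the 4 TRiC libraries was left out, and the other 11 lost theirs without at least 1 of them, with 6 and 7 lower calls left without TRiC input replicates 1 and 2. Those that fell included 4 of 5 factors that hand tail-anchored membrane proteins on. Among them SGTA had 99.3 and 90.6 CPM in input and 70.8 and 64.1 CPM in pulldown (−0.49, edgeR adjusted p = 0.00154). UBL4A (−0.43), GET3 (−0.30) and BAG6 (−0.26) fell as well, and GET4 was at −0.44 (edgeR adjusted p = 0.143).

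Relatives and partners of the members divided. Of the 5 other SRP and SRP receptor proteins, SRP14, which binds the Alu end of the SRP RNA, fell from 168 and 176 to 130.0 and 131 CPM (−0.40, edgeR adjusted p = 0.0020). Its partner SRP9 was at 0.46 (edgeR adjusted p = 0.134). Of the 10 other subunits of N-terminal acetyltransferases, NAA50 (−0.28), NAA20 (−0.45) and NAA38 (−0.41) fell. For NAA38, 38.6% of exon bases lie under CYB5D1 on the opposite strand, and the effect of that overlap on its counts was not tested either. HYPK, a small inhibitory partner of NAA15, rose from 22 and 19 counts in TRiC input to 87 and 106 counts in TRiC pulldown (2.25, SE 0.45, edgeR adjusted p = 0.00236). In the PFD line HYPK had 18 and 5 counts in input and 0 in both pulldowns and did not pass the filter there, and the interaction had an edgeR adjusted p of 0.173. HYPK shares 55.7% of its exon bases with SERF2 on the same strand, and how that overlap affects its counts was not tested. NACAD, a relative of NACA, fell from 44 and 45 to 11 and 5 counts in the TRiC line and had 0 counts in all 4 PFD libraries. It passed the count filter through its input counts, and was not tested where at least 10 counts were required in every library.

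The remaining calls were of single enzymes and channel subunits. PDF, a mitochondrial peptide deformylase, fell by 0.61, with 79.3% of its exon bases under genes of the same strand, among them COG8. PDF was at −0.95 without TRiC pulldown replicate 1 and at −0.34 (edgeR adjusted p = 0.154) without replicate 2. NMT1, an N-myristoyltransferase, fell by 0.26. The small SEC61 subunits SEC61B and SEC61G fell by 0.48 and 0.38, and the channel subunit SEC61A1 was at −0.05. In ribosome-associated quality control, TCF25 rose (0.24) and PELO, which rescues stalled ribosomes, fell (−0.28) among 7 genes. In the PFD pulldown, 36 of the 39 factors were tested and 0 were called, and the interaction called 0 of 39. DESeq2 called 2 of them higher in the interaction, beside 2.55% of all genes. The calls of these factors changed with the PFD pulldown library left out, in fits with 1 replicate in that group. Between the inputs, 3 of the 39 were higher in the TRiC line and 9 were lower, beside 10.5% and 9.93% of all genes tested. Fewer were lower when 1 of the inputs was left out. The 3 higher were SRP14 (0.81), NAA38 (1.86) and NACAD. NACAD had 0 counts in every PFD library, so its call compares with 0 and no fold is given.

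**Figure D4:**
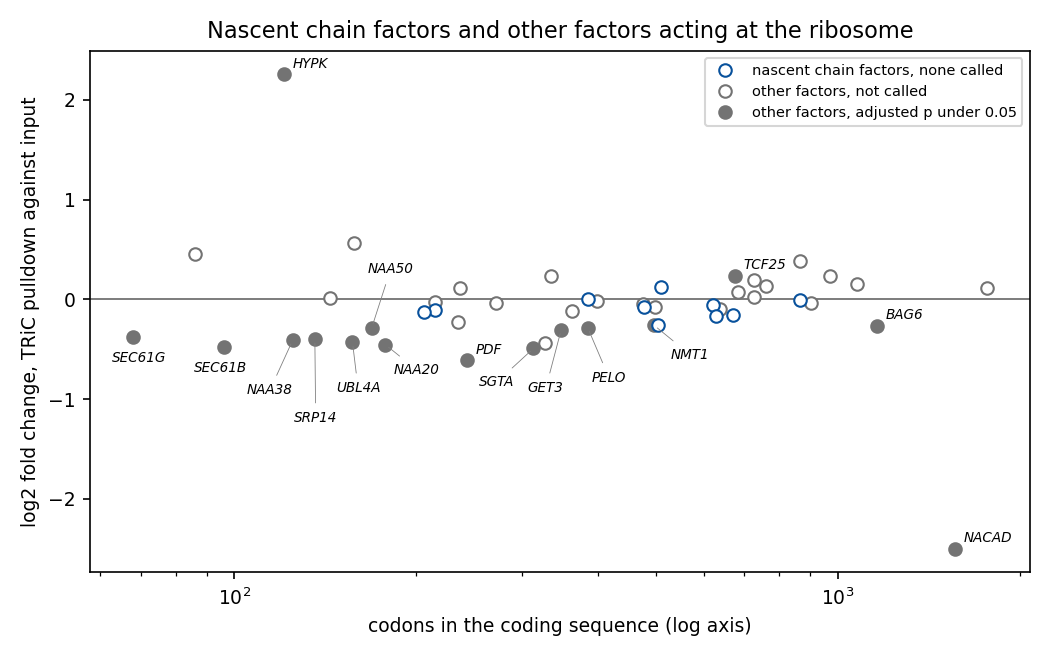
Log2 fold change of TRiC pulldown against input (y axis) by codons of the coding sequence (x axis, log scale). The 10 nascent chain factors are blue and the 39 other listed factors grey, filled where the edgeR adjusted p was under 0.05. The blue points lie between −0.25 and 0.13, and the farthest grey points are HYPK (2.25) and NACAD (−2.50).

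Coding length was set beside the fold changes. Spearman's rho between coding length and log2 fold change was 0.349 across 14615 tested genes with a coding sequence, 0.279 across the 49 members and listed factors, and −0.00606 across the 10 members. In the PFD line it was 0.0742 across 12652 genes and 0.152 across the members. These are descriptions across genes, which share libraries and are not independent replicates. Counts per gene carry no positions along the mRNA, so contacts limited to some codons could leave the total of a gene near its input level.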

How the data were processed

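RPFs of 8 U-2 OS libraries were analysed. The authors trimmed and demultiplexed reads, removed PCR duplicates by unique molecular identifiers (umi-tools), discarded non-coding RNA with Bowtie2 2.4.2, and aligned what remained to hg38 by STAR 2.7.10a (at most 2 mismatches, unique alignments). The deposited values are raw counts per gene, 1 table per line. The annotation release and the strand column are not given in the sources used here. Of 60664 identifiers, 60463 matched GENCODE release 44.

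Counts were tested with edgeR 4.0.16 in R 4.3.3 (TMM, filterByExpr, glmQLFit, glmQLFTest, no replicate block) with Benjamini-Hochberg adjustment over all genes tested, within each line, or over 8 libraries for the interaction and the inputs. Alternatives used DESeq2 1.42.0, limma 3.58.1 and other filters, scalings and libraries. The statistics were tested on simulated data. Counting error is small at these depths, and the spread of 2 replicates limits precision. All members were named, and other listed genes where called in a pulldown. GET4, SEC61A1 and SRP9 were named after their values were seen. The members and lists were chosen with earlier results of these data known. The sequence of 1 window is not reported here.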

Additional observations from a re-analysis of the deposited data

How the results depend on the processing

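In the TRiC pulldown, 1 member (SRP54, −0.25 with the block) was called lower with a replicate block, 1 (SRP54) with no filter on low counts, and 0 to 2 when a library was left out. NAA15, at −0.00, turned to 0.0084 with DESeq2, 0.0416 with library totals, 0.0744 with cyclic loess, 0.0171 with at least 10 and 0.0606 with at least 100 counts in every library. The median of all genes moved from −0.00 to 0.04 with library totals and to −0.02 with cyclic loess. METAP1 turned to −0.0063 with no filter and DNAJC2 to 0.0098 with at least 100 counts. Leaving out a library gave −0.0215 to 0.293 for HSPA14, −0.0339 to 0.0379 for METAP1 and −0.13 to 0.11 for NAA15. In the PFD pulldown BTF3 was at −0.0027 with library totals. Leaving out a library gave a median of −0.101 to −0.0432 and 0 to 1 lower member, with −0.11 to 0.16 for BTF3, −0.20 to 0.38 for DNAJC2, −0.0727 to 0.583 for HSPA14, −0.0451 to 0.202 for SRP54 and −0.10 to 0.21 for SRP68. For the interaction it gave a median of −0.0797 to 0.0831 and 0 to 1 higher member, with −0.37 to 0.12 for DNAJC2, −0.38 to 0.18 for HSPA14, −0.0275 to 0.648 for METAP2 and −0.0339 to 0.221 for NAA15. Between the inputs it gave a median of −0.85 to −0.66 and 5 to 10 lower members, and the median was −0.70 with at least 100 counts. No input difference turned in sign. The cause of these changes was not tested.

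Same-numbered samples deviated together with a correlation of 0.05 (TRiC) and −0.01 (PFD), so the replicate numbers do not pair them. With the replicate block, SRP54 had an edgeR adjusted p of 0.0102 in the TRiC pulldown, and 6 members were lower between the inputs, without METAP1 (0.0926) and METAP2 (0.165). Over all genes, the block called 2037 higher and 2652 lower with TRiC, 44 and 90 with PFD, 0 and 0 in the interaction, and 786 and 843 between the inputs. With all 8 libraries in 1 fit, 31 genes (16 higher, 15 lower) were called in the TRiC pulldown. DESeq2 called 256 higher and 295 lower in the PFD pulldown and 481 and 536 in the interaction, and the 4 inputs alone gave 3685 and 2898. Of the other listed factors in the TRiC pulldown, 0 to 5 were higher and 0 to 14 lower under the settings that keep all 4 libraries, and 1 to 7 and 6 to 15 when a library was left out. These settings were applied to them after their calls were seen. The 2 replicates a group limit all of these tests, and changes well under the members' intervals in the PFD line were not detectable.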
